A study of Mus musculus with 64 samples.

Results

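A set of 7 chemokine genes was followed across whole mouse colon: the CXCR3 ligands Cxcl9, Cxcl10 and Cxcl11, their receptor gene Cxcr3, and the epithelial CC chemokines Ccl28, Ccl20 and Ccl25. They were taken by gene name from both deposited tables, where they were 7 of 35534 rows each, and each symbol matched 1 row. All 7 passed the filter on low values in both tables, Cxcl11 in SPF colons through vancomycin libraries alone. Counts of changed genes are given below against the 16938 genes tested in specific pathogen-free (SPF) colons and the 16951 tested in germ-free (GF) colons.

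The study compared vancomycin, a glycopeptide antibiotic, with PBS in mice with and without a microbiota at different times of day. It held 64 RNA-seq libraries of flash-frozen whole colon in 16 groups of 4. All mice were wild-type Swiss Webster animals, 8 to 12 weeks old, on a 12-hour light and dark cycle and standard chow. Groups crossed 2 treatments, 2 microbial states and the zeitgeber times (ZT, hours on the light cycle) 5, 11, 17 and 23. Vancomycin groups received 2.5 mg vancomycin in 100 µl PBS (phosphate-buffered saline) by intraperitoneal injection, 2 times daily for 3 days and once more on day 4. PBS groups received 100 µl PBS alone on that schedule. GF mice of both treatments were held in ISOcages outside their isolators while they were treated, so handling is shared by the GF groups and differs from the SPF groups. Whether the 4 libraries of a group stem from 4 animals is not stated in the labels, and p-values here measure the spread between libraries, which may be technical. Library totals ran from 10044032 to 13615804 estimated counts in the SPF table and from 10513966 to 15736087 in the GF table.

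Chemokines are small secreted proteins that draw leukocytes carrying the matching receptor. CXCL9, CXCL10 and CXCL11 are induced by interferon gamma and bind CXCR3, which is carried by activated T cells and natural killer (NK) cells. In the gut epithelium, CCL28 is made in the colon and draws IgA plasmablasts through CCR10, CCL20 is made over lymphoid follicles and draws B cells and T cells carrying CCR6, and CCL25, known mainly from the small intestine, draws cells carrying CCR9.

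Levels below are counts per 1000000 counts of a library (CPM) after trimmed-mean (TMM) scaling. Fold changes are log2 values of vancomycin over PBS from edgeR's quasi-likelihood test, averaged over the 4 times unless a time is named, with their standard error (SE). A gene is called changed at a Benjamini-Hochberg adjusted p under 0.05 over all genes tested in that comparison. Because the tissue is bulk, fewer cells of a type and less RNA per cell cannot be told apart.

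To show the sequence upstream of Cxcl9, Cxcl10 and Ccl28, their promoter windows were read from RefSeq (build GRCm38.p6, 250 bases before to 50 after the start, in the direction of transcription). Cxcl9 and Ccl28 were called changed by vancomycin in SPF colons, and Cxcl10 was not. The windows are chr5:92328030-92328329 (minus strand) for Cxcl9, chr5:92348840-92349139 (minus strand) for Cxcl10 and chr13:119623569-119623868 (plus strand) for Ccl28. Capitals mark matches, on either strand, to an interferon-stimulated response element core (GAAA, any 2 bases, GAAA) or a kappaB element (GGG, any 3 bases, TTCC), and no match overlapped another.
Cxcl9: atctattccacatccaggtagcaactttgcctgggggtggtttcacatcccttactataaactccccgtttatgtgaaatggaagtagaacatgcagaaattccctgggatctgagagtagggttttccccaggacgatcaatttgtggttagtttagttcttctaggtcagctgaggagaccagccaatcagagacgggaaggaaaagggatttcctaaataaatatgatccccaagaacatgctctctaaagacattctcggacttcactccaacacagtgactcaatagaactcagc
Cxcl10: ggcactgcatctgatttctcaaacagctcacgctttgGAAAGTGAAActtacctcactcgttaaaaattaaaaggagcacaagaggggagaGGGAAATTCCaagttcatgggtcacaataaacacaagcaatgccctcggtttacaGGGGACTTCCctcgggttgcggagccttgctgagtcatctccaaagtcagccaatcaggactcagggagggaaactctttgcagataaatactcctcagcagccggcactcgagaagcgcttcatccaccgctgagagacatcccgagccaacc
Ccl28: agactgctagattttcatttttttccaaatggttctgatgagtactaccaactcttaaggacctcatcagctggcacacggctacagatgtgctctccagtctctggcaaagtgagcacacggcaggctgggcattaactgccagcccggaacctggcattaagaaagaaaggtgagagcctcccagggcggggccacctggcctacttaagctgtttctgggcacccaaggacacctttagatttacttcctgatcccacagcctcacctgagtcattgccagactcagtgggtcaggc

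The Cxcl10 window held 1 interferon-stimulated response element core, whose first base lies at -213 from the start, and 2 kappaB elements at -159 and -104. The Ccl20 window (chr1:83116516-83116815, plus strand) held 1 kappaB element on the opposite strand, at -80. No match lay in the windows of Cxcl9, Ccl28, Cxcr3 or Ccl25. Of all 32851 promoters in the table, 3.44% held the response element core and 5.56% the kappaB element. The table matched 6 of the 7 genes and held no promoter of Cxcl11.

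Among the CXCR3 ligands, Cxcl9 rose in vancomycin-treated SPF colons, and Cxcl10 was higher without passing the threshold. Cxcl11 was also called higher, but it had passed the filter on low values through vancomycin libraries alone. Across the 7 genes, 3 were called changed by vancomycin in SPF mice, 2 higher and 1 lower. Of all 16938 genes tested, 0.809% were called: 0.378% higher and 0.431% lower. At an unadjusted p under 0.05, 4 of the 7 passed (the 3 ligands and Ccl28), against 16.2% of all genes. The 7 genes were chosen with earlier results of these data known, so these counts are no test of the set.

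Cxcl9 (ENSMUSG00000029417, chromosome 5) ranged over 0.335 to 23.97 CPM with a median of 3.74 CPM in 16 vancomycin-treated SPF libraries. It ranged over 0.0747 to 3.70 CPM with a median of 0.858 CPM in the 16 PBS-treated SPF libraries. The groups overlapped: 8 of 16 vancomycin libraries lay above the highest PBS library and 15 above the PBS median. Means were 6.38 ± 7.05 CPM with vancomycin and 1.01 ± 0.902 CPM with PBS (SD, n = 16 each). The log2 fold change of Cxcl9 was 2.41 ± 0.45 (SE), with an edgeR adjusted p of 0.0154.

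By time, Cxcl9 stood at 2.17, 1.40, 0.922 and 1.97 CPM with vancomycin at ZT5, against 3.70, 0.936, 1.08 and 0.0747 CPM with PBS. At ZT11 it stood at 15.4, 23.97, 0.335 and 2.02 CPM with vancomycin, against 0.946, 1.11, 2.28 and 0.253 CPM with PBS. The ZT5 groups overlapped throughout, and at ZT11 the vancomycin libraries split into a pair far above PBS and a pair within its range. At ZT17 Cxcl9 stood at 5.35, 4.69, 7.02 and 2.34 CPM with vancomycin, against 0.439, 1.31, 0.703 and 0.780 CPM with PBS. At ZT23 it stood at 5.91, 6.16, 2.79 and 19.6 CPM with vancomycin, against 0.0880, 0.693, 0.439 and 1.28 CPM with PBS. At these 2 times no vancomycin library overlapped PBS, as was so for 2.56% of all genes with higher vancomycin levels at ZT17 and 2.11% at ZT23.

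The log2 fold changes of Cxcl9 by time were 0.17 ± 0.88 at ZT5, 3.18 ± 0.90 at ZT11, 2.56 ± 0.91 at ZT17 and 3.74 ± 0.95 at ZT23. None was called at a single time (edgeR adjusted p 0.953, 0.206, 0.361 and 0.257 in that order), where 0.0827%, 0%, 0.319% and 0% of all genes were. At ZT5, 0.0177% of genes were called higher and 0.0649% lower, and at ZT17 0.13% higher. At an unadjusted p under 0.05, none of the 7 genes passed at ZT5, against 14.2% of all genes. By that criterion 4 passed at ZT11 (the 3 ligands and Ccl28), against 9.86% of genes, 2 at ZT17 (Cxcl9 and Ccl28), against 8.65%, and 3 at ZT23 (the 3 ligands), against 7.34%. DESeq2 called Cxcl9 at ZT11 and at ZT23 (adjusted p 0.035 and 0.0165). The treatment by time test gave an adjusted p of 0.499 for Cxcl9, against 0.36% of genes called; without adjustment Cxcl9 and Ccl28 were under 0.05 for it, as were 9.79% of genes.

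Cxcl11 (ENSMUSG00000060183, chromosome 5) ranged over 0 to 6.59 CPM with a median of 0.773 CPM in vancomycin-treated SPF libraries, 1 of 16 being at 0. It ranged over 0 to 0.546 CPM with a median of 0.236 CPM in PBS-treated SPF libraries, 2 of 16 being at 0. The highest vancomycin libraries therefore stood well apart, with 10 of 16 above the highest PBS library, while 5 of 16 lay below the PBS median. Means were 1.31 ± 1.68 CPM with vancomycin and 0.214 ± 0.139 CPM with PBS (SD, n = 16 each). The log2 fold change of Cxcl11 was 2.33 ± 0.52 (SE), with an edgeR adjusted p of 0.0337. Each PBS-treated SPF library lay below the 10 counts that the filter asks for. Cxcl11 therefore entered this test through vancomycin libraries alone, the group where it was higher.

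At ZT11 Cxcl11 stood at 6.59, 2.01, 0 and 0.577 CPM with vancomycin, against 0.258, 0.318, 0.0843 and 0.253 CPM with PBS. At ZT23 it stood at 2.84, 0.616, 0.930 and 2.81 CPM with vancomycin, against 0, 0.173, 0 and 0.241 CPM with PBS. All 4 vancomycin libraries were above PBS at ZT23, as 2.11% of all genes were at that time, and 3 of 4 were at ZT11. At ZT5 the 4 vancomycin libraries held 0.322, 0.147, 0.213 and 0.937 CPM of Cxcl11, against 0.344, 0.0780, 0.308 and 0.149 CPM with PBS. At ZT17 they held 0.160, 1.51, 1.25 and 0.0867 CPM, against 0.176, 0.231, 0.264 and 0.546 CPM with PBS, and at both times the groups overlapped. The log2 fold changes were 0.82 ± 1.06 at ZT5, 3.27 ± 0.99 at ZT11, 1.27 ± 0.98 at ZT17 and 3.96 ± 1.09 at ZT23, none of them called.

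Cxcl10 (ENSMUSG00000034855, chromosome 5) ranged over 0.252 to 11.1 CPM with a median of 2.59 CPM in vancomycin-treated SPF libraries. It ranged over 0.0880 to 3.21 CPM with a median of 0.799 CPM in PBS-treated SPF libraries. The ranges overlapped, with 6 of 16 vancomycin libraries above the highest PBS library and 13 above the PBS median. Its log2 fold change was 1.66 ± 0.44 (SE), with an edgeR adjusted p of 0.0668. A single PBS library at ZT23 held 3.21 CPM of Cxcl10, against 0.0880, 0.433 and 0.526 CPM in the other 3, and without it the log2 fold change was 2.06 (adjusted p 0.0258). Over the 32 fits that each left out 1 library, the log2 fold change ran from 1.43 to 2.06, and Cxcl10 was not called in 28. Over 12 other settings it ran from 1.115 to 1.696, and Cxcl10 was not called in 11.

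By time, Cxcl10 stood at 0.322, 0.663, 2.41 and 5.53 CPM with vancomycin at ZT5, against 0.430, 0.624, 1.93 and 0.897 CPM with PBS. At ZT11 it stood at 8.59, 11.1, 0.252 and 2.88 CPM with vancomycin, against 1.20, 2.14, 0.506 and 0.338 CPM with PBS. The 2 vancomycin libraries at ZT11 that were highest for Cxcl9 were also the highest for Cxcl10 and Cxcl11, and the third replicate was the lowest for all 3 ligands. At ZT17 Cxcl10 stood at 2.08, 6.87, 2.76 and 1.74 CPM with vancomycin, against 0.702, 2.00, 1.76 and 1.33 CPM with PBS. At ZT23 the vancomycin libraries held 2.40, 2.00, 5.66 and 5.52 CPM. Vancomycin and PBS libraries overlapped for Cxcl10 at all 4 times, and the log2 fold changes of 1.17, 2.43, 1.21 and 1.84 at ZT5, ZT11, ZT17 and ZT23 were not called.

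**Figure D1:**
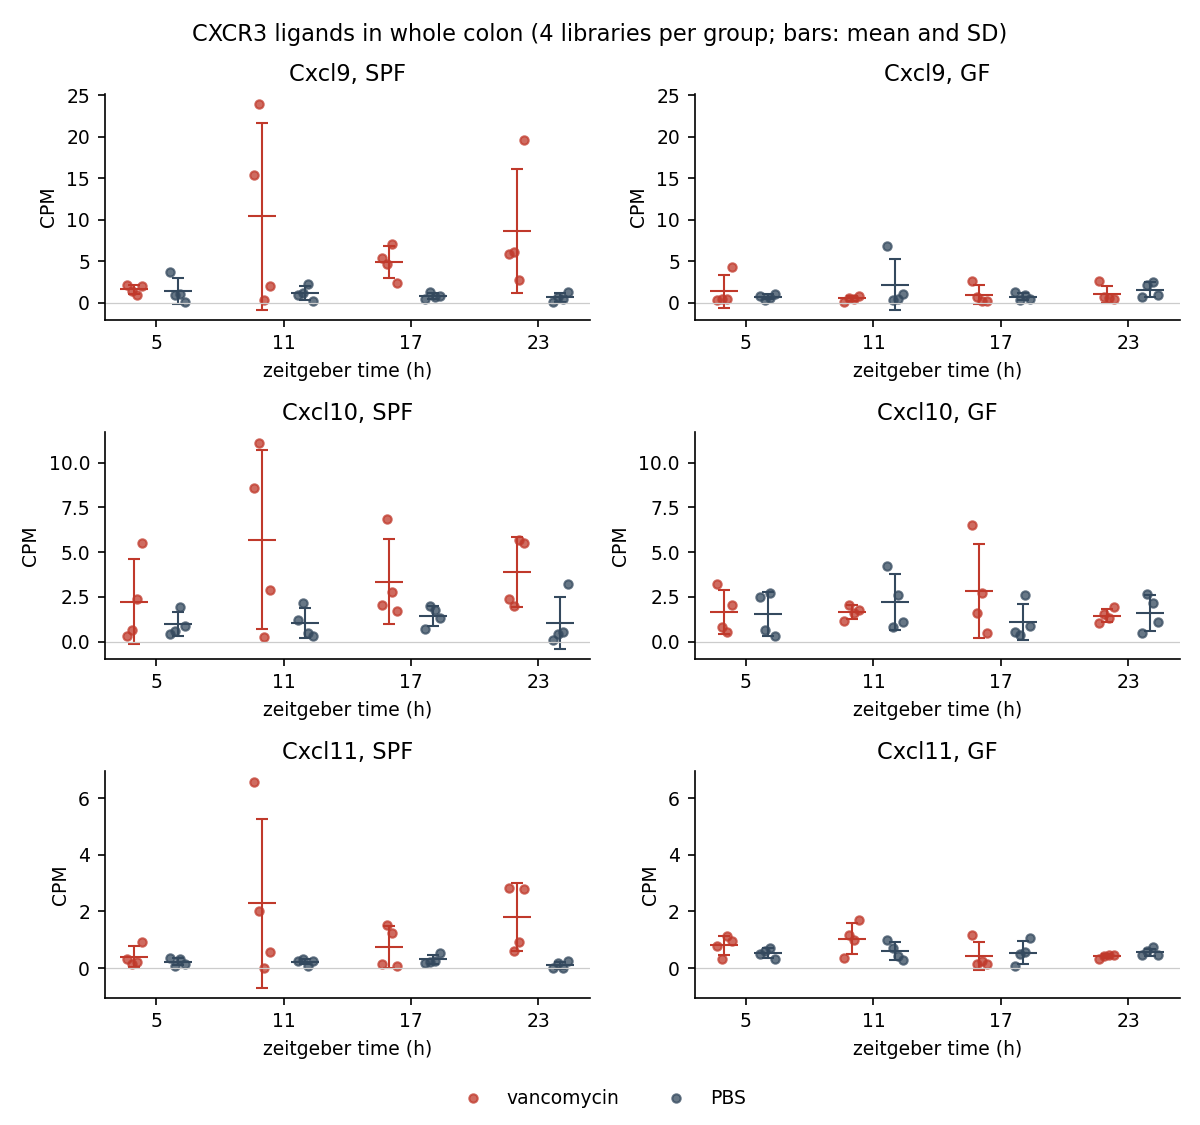
Levels of Cxcl9, Cxcl10 and Cxcl11 in CPM (y axis) by zeitgeber time (x axis), SPF left and GF right on a shared scale for each gene; points are libraries, bars the mean and SD of 4. In SPF mice the vancomycin libraries reached 23.97 CPM for Cxcl9, 11.1 CPM for Cxcl10 and 6.59 CPM for Cxcl11, against 3.70, 3.21 and 0.546 CPM at most with PBS, and at ZT17 and ZT23 no vancomycin library overlapped PBS for Cxcl9.

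Ordered by mean level, the SPF vancomycin groups at ZT11, ZT23, ZT17 and ZT5 came before all PBS groups for each of the 3 ligands. For Cxcl9 the means were 10.4 ± 11.3, 8.61 ± 7.46, 4.85 ± 1.94 and 1.62 ± 0.567 CPM in that order (SD, n = 4 each), and the PBS means lay between 0.626 and 1.45 CPM. The only neighbours in the Cxcl9 order that differed by more than their pooled SD were vancomycin ZT17 and vancomycin ZT5, 2.26 pooled SD apart. For Cxcl11 these were vancomycin ZT23 and vancomycin ZT17, 1.06 pooled SD apart, and for Cxcl10 there were none.

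The 3 ligands varied together between SPF libraries of the same group. With group means removed, Pearson's r over 32 SPF libraries on log2(CPM + 1) was 0.689 for Cxcl9 with Cxcl11, 0.641 for Cxcl10 with Cxcl11 and 0.555 for Cxcl9 with Cxcl10. These libraries share preparation and depth, so the correlations are descriptive. Cxcl10 shares 133 of its 2252 exon bases with Art3 on the opposite strand, and Cxcl11 shares 1582 of its 3794 exon bases with the pseudogene Gm2673. The library kit does not mark strand, so reads there cannot be assigned to a gene by strand. Gm2673 itself was estimated at no more than 0.99 reads in any SPF library, and Art3 had a log2 fold change of -0.31 ± 0.21 (edgeR adjusted p 0.492). The gene annotation used for these overlaps classes Cxcl11 itself as a polymorphic pseudogene, and Cxcl9 and Cxcl10 as protein-coding. Whether the Cxcl11 RNA of these mice yields a working ligand was not tested.

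Markers of T and NK cells were higher beside the ligands. All 21 markers of that list had a positive log2 fold change in SPF colons, with a median of 0.93 against -0.00403 over all genes, and Cd3d, a chain of the T cell receptor complex, was called (1.92 ± 0.46, adjusted p 0.0428). The summed level of the list was 21.6 to 758.1 CPM (median 187 CPM) with vancomycin and 18.2 to 484.3 CPM (median 66.3 CPM) with PBS, and no marker was at 0 in all libraries. With that score as a covariate, Cxcl9 kept a log2 fold change of 2.08 ± 0.44 (adjusted p 0.0383), and Cxcl11 had 2.21 ± 0.55 (adjusted p 0.0699). By time, the same list had a median log2 fold change of 1.53 at ZT5, 1.73 at ZT11, 0.45 at ZT17 and 0.02 at ZT23. The log2 fold changes at those times were 0.17, 3.18, 2.56 and 3.74 for Cxcl9, and 0.82, 3.27, 1.27 and 3.96 for Cxcl11.

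The Cxcl9 call was kept without any 1 of the 32 SPF libraries (log2 fold change 2.21 to 2.67) and lost in 1 of 12 other settings, with a colon epithelium score as covariate (2.47 ± 0.54, adjusted p 0.104). Cxcl11 lost its call in 4 of those 12 settings and when 1 of 8 libraries was left out: vancomycin ZT5 replicate 4, ZT11 replicate 1, ZT17 replicate 2 or ZT23 replicate 1, or PBS ZT5 replicate 2, ZT11 replicate 1, ZT23 replicate 2 or ZT23 replicate 3 (log2 fold change 1.97 to 2.40, adjusted p 0.0501 to 0.0685).

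Cxcr3 (ENSMUSG00000050232, chromosome X), the receptor of the 3 ligands, was not called in any comparison. It ranged over 0.252 to 2.71 CPM with a median of 1.15 CPM in vancomycin-treated SPF libraries, and over 0.231 to 2.73 CPM with a median of 0.574 CPM in PBS-treated SPF libraries. The ranges were nearly the same, no vancomycin library lay above the highest PBS library, and 12 of 16 lay above the PBS median. Its log2 fold change was 0.54 ± 0.33 (SE), with an edgeR adjusted p of 0.435.

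At ZT5 the 4 vancomycin libraries held 1.21, 1.25, 1.21 and 1.13 CPM of Cxcr3, against 0.602, 0.546, 0.231 and 0.523 CPM with PBS. These groups did not overlap, as was so for 4.12% of all genes with higher vancomycin levels at that time. The log2 fold change at ZT5 was 1.32 ± 0.68 (edgeR adjusted p 0.374). At ZT11 Cxcr3 stood at 0.417, 2.71, 0.252 and 1.15 CPM with vancomycin, against 0.430, 1.83, 0.337 and 0.338 CPM with PBS. At ZT17 it stood at 1.60, 2.01, 0.418 and 0.781 CPM with vancomycin, against 0.790, 0.999, 0.615 and 0.780 CPM with PBS. At ZT23 it stood at 1.12, 1.16, 0.254 and 1.18 CPM with vancomycin, against 0.528, 1.13, 0.351 and 2.73 CPM with PBS. The groups overlapped at all 3 later times, and no pair of neighbours among the 8 SPF group means differed by more than 0.486 pooled SD.

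Cxcr3 varied with the scores of several immune cell lists. With group means removed, its Pearson's r with the T and NK cell score was 0.935 over 32 SPF libraries and 0.733 over 32 GF libraries. With the T and NK cell score as a covariate its SPF log2 fold change was -0.10 ± 0.17. Its r in SPF libraries was 0.848 with the B cell and follicle score, 0.848 with the follicle-associated epithelium score and 0.837 with the macrophage and dendritic cell score. In GF libraries these were 0.751, 0.678 and 0.724, the B cell and follicle value being above that of T and NK cells. The scores are built from other genes of the same libraries.

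**Figure D2:**
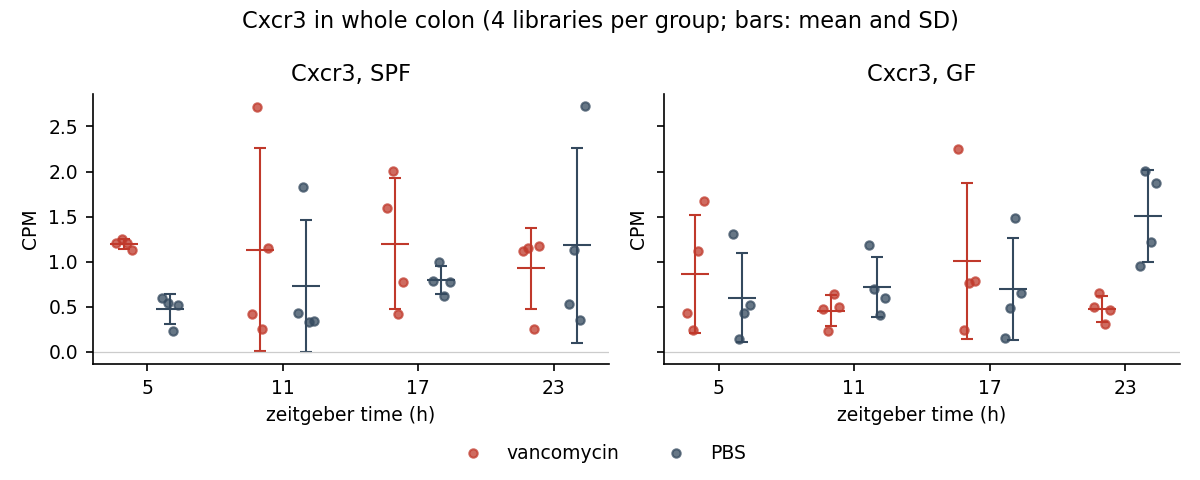
Cxcr3 in CPM (y axis) by zeitgeber time (x axis), SPF left and GF right; points are libraries, bars the mean and SD of 4. Vancomycin and PBS libraries were apart at ZT5 in SPF mice (1.13 to 1.25 CPM against 0.231 to 0.602 CPM) and at ZT23 in GF mice (0.307 to 0.659 CPM against 0.949 to 2.00 CPM), in opposite directions and without passing the test.

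Of the epithelial chemokines, Ccl28 fell in vancomycin-treated SPF colons, and Ccl20 and Ccl25 were not called. Ccl28 (ENSMUSG00000074715, chromosome 13) ranged over 63.2 to 126.7 CPM with a median of 84.1 CPM in vancomycin-treated SPF libraries. It ranged over 74.7 to 185 CPM with a median of 107 CPM in PBS-treated SPF libraries. The ranges overlapped, with 14 of 16 vancomycin libraries below the PBS median and 3 below the lowest PBS library. Means were 88.1 ± 17.9 CPM with vancomycin and 110.2 ± 24.97 CPM with PBS (SD, n = 16 each). The log2 fold change was -0.32 ± 0.08 (SE), with an edgeR adjusted p of 0.042.

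At ZT17 the 4 vancomycin libraries held 91.1, 75.0, 80.9 and 100.5 CPM of Ccl28, against 185, 131, 112 and 124 CPM with PBS. No library overlapped, as was so for 3.33% of all genes with lower vancomycin levels at that time. Ccl28 fell by 0.67 ± 0.15 on the log2 scale at ZT17 (edgeR adjusted p 0.0495), the only call of the 7 genes at a single time, where 0.189% of all genes were called lower. At ZT11 Ccl28 stood at 70.5, 84.0, 93.8 and 63.2 CPM with vancomycin, against 123, 92.8, 99.1 and 100.1 CPM with PBS, 1 vancomycin library lying inside the PBS range. At ZT5 it stood at 127, 96.0, 127 and 84.3 CPM with vancomycin, against 102, 109, 113 and 118 CPM with PBS. At ZT23 it stood at 75.9, 73.2, 85.9 and 82.4 CPM with vancomycin, against 106, 84.3, 90.6 and 74.7 CPM with PBS. Groups overlapped at both of these times, and the log2 fold changes were -0.02 ± 0.15 at ZT5, -0.41 ± 0.15 at ZT11 and -0.16 ± 0.15 at ZT23. The treatment by time test gave an adjusted p of 0.445 for Ccl28, so the effects at the 4 times were not shown to differ.

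Ccl28 changed with time of day in PBS-treated SPF colons (edgeR adjusted p 0.0365), where 8.9% of all genes did. Its means with PBS were 110.3 ± 6.56 CPM at ZT5, 103.6 ± 13.03 CPM at ZT11, 138 ± 32.3 CPM at ZT17 and 88.8 ± 12.97 CPM at ZT23 (SD, n = 4 each). With vancomycin they were 108 ± 21.6, 77.9 ± 13.7, 86.9 ± 11.3 and 79.4 ± 5.86 CPM at those times, with an adjusted p of 0.0976 against 8.2% of genes called. The highest mean was at ZT17 with PBS and at ZT5 with vancomycin. All 8 smooth muscle markers were called for time of day with each SPF treatment. Of 10 small intestine markers tested, 5 were called with PBS and 2 with vancomycin. A smooth muscle covariate was not run for time of day. The Ccl28 call with PBS was lost without the filter, with a colon position covariate and in 9 of 32 fits without 1 library. None of the other 6 genes was called for time of day in either SPF treatment, and none of the 7 in either GF treatment, where 0.142% of genes were called in each. At an unadjusted p under 0.05, 4 of the 7 passed for time of day with vancomycin in SPF colons (Cxcl9, Cxcl11, Ccl28 and Ccl25, against 24.1% of genes) and 1 with PBS (Ccl28, against 25.7%). In GF colons 1 passed with vancomycin (Ccl28, against 9.51% of genes) and none with PBS (14.7%).

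The Ccl28 calls lie near the threshold. The call over 4 times was kept in 7 of 12 other settings, and its log2 fold change stayed between -0.35 and -0.24. It was lost without any 1 of 21 SPF libraries (adjusted p 0.0528 to 0.0726). The 11 whose absence kept it were vancomycin ZT5 replicates 1 and 3, ZT11 replicate 3, ZT17 replicate 4 and ZT23 replicates 3 and 4, and PBS ZT5 replicate 1, ZT11 replicate 2, ZT17 replicates 2 and 3 and ZT23 replicate 4. The ZT17 call was lost in 27 of 32 such fits (log2 fold change -0.74 to -0.48, adjusted p 0.0503 to 0.229), and kept without PBS ZT17 replicate 3, PBS ZT11 replicate 2, vancomycin ZT5 replicate 4 or vancomycin ZT11 replicate 3 or 4. Markers of colon epithelium were lower beside it: 10 of 11 had a negative log2 fold change, with a median of -0.21 against -0.00403 over all genes, and Krt18, an epithelial keratin, was called (-0.48 ± 0.10, adjusted p 0.019). Their summed level was 10270 to 21470 CPM with vancomycin and 11160 to 21550 CPM with PBS, with no marker at 0 in all libraries. With that score as a covariate, which was chosen after the data were seen, Ccl28 had a log2 fold change of -0.24 ± 0.08 (adjusted p 0.302). With the T and NK cell score it had -0.25 ± 0.08 (adjusted p 0.148).

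Ccl20 (ENSMUSG00000026166, chromosome 1) ranged over 1.04 to 8.62 CPM with a median of 4.70 CPM in vancomycin-treated SPF libraries. It ranged over 1.60 to 6.61 CPM with a median of 3.95 CPM in PBS-treated SPF libraries. The ranges overlapped widely, 4 of 16 vancomycin libraries being above the highest PBS library and 2 below the lowest. Its log2 fold change was 0.32 ± 0.24 (SE), with an edgeR adjusted p of 0.551. Group means ran between 3.35 ± 2.10 CPM in PBS ZT11 and 6.87 ± 1.82 CPM in vancomycin ZT5 (SD, n = 4 each), and no neighbours in the order differed by more than 0.872 pooled SD.

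Ccl25 (ENSMUSG00000023235, chromosome 8) ranged over 4.94 to 14.03 CPM with a median of 8.46 CPM in vancomycin-treated SPF libraries, and over 5.01 to 17.01 CPM with a median of 8.51 CPM in PBS-treated SPF libraries. The groups covered each other, with 8 of 16 vancomycin libraries on either side of the PBS median. Its log2 fold change was -0.03 ± 0.14 (SE), with an edgeR adjusted p of 0.959 and a 95% interval of -0.30 to 0.24. By time the sign varied, with 0.46 ± 0.28 at ZT5, -0.32 ± 0.28 at ZT11, -0.47 ± 0.28 at ZT17 and 0.23 ± 0.27 at ZT23, none called. Ccl25 shares 204 of its 7445 exon bases with Elavl1 on the opposite strand.

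**Figure D3:**
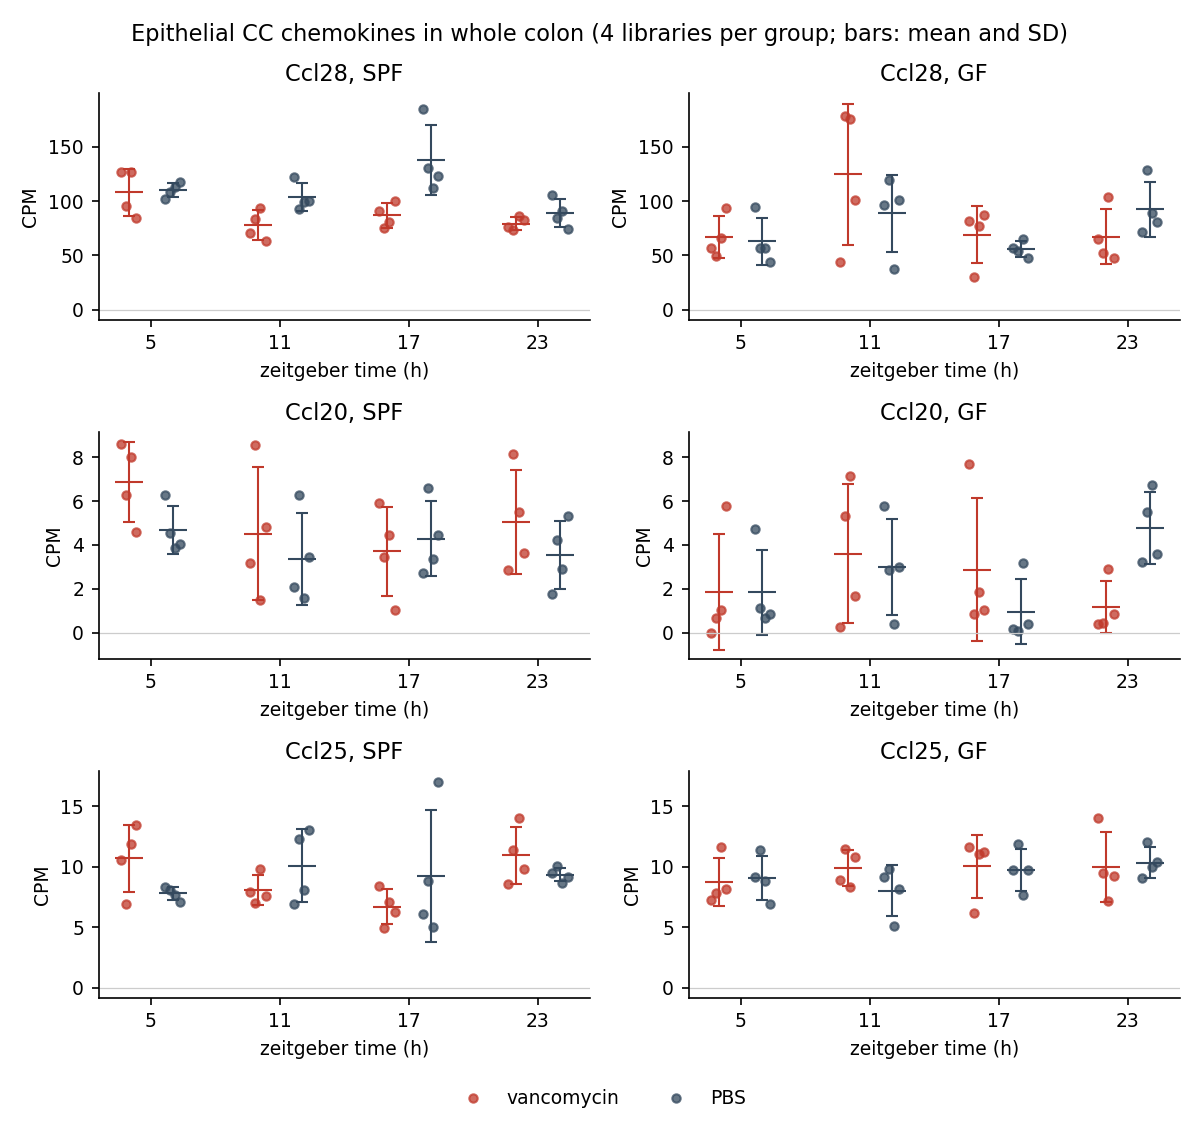
Levels of Ccl28, Ccl20 and Ccl25 in CPM (y axis) by zeitgeber time (x axis), SPF left and GF right on a shared scale for each gene; points are libraries, bars the mean and SD of 4. At ZT17 in SPF mice the Ccl28 libraries did not overlap, 75.0 to 100.5 CPM with vancomycin and 112 to 185 CPM with PBS, while Ccl20 and Ccl25 overlapped at all 4 times.

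In GF colons none of the 7 genes was called by edgeR or DESeq2 over the 4 times, and none was at an unadjusted p under 0.05. edgeR called 0 of 16951 genes for the vancomycin effect (0%), while 672 (3.96%) had an unadjusted p under 0.05 and 5 were called by DESeq2. At single times, Cxcl9 at ZT11 and Cxcr3 at ZT23 were under that unadjusted level, against 4.91% and 12.1% of genes, and none of the 7 at ZT5 or ZT17, against 3.58% and 4.47%. For treatment by time in GF colons edgeR called none of the 7, and none was under that unadjusted level, against 8.29% of genes. Cxcl9 ranged over 0.135 to 4.31 CPM with a median of 0.517 CPM in vancomycin-treated GF libraries, and over 0.323 to 6.81 CPM with a median of 0.841 CPM in PBS-treated GF libraries. No vancomycin library lay above the highest PBS library, 13 of 16 lay below the PBS median, and the log2 fold change was -0.34 ± 0.47. At ZT11 Cxcl9 held 0.135, 0.614, 0.496 and 0.775 CPM with vancomycin, against 6.81, 0.350, 0.478 and 1.05 CPM with PBS, 1 PBS library standing far above the other 3. The log2 fold change there was -2.09 ± 0.96, with an unadjusted p of 0.038 and an edgeR adjusted p of 0.996.

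Cxcl10 ranged over 0.470 to 6.53 CPM with a median of 1.61 CPM in vancomycin-treated GF libraries, and over 0.324 to 4.23 CPM with a median of 1.13 CPM in PBS-treated GF libraries. Cxcl11 ranged over 0.157 to 1.69 CPM with a median of 0.463 CPM with vancomycin, and over 0.0787 to 1.06 CPM with a median of 0.529 CPM with PBS. The log2 fold changes were 0.22 ± 0.36 for Cxcl10 and 0.16 ± 0.30 for Cxcl11. The GF treatments thus overlapped for all 3 ligands.

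Ccl28 ranged over 30.03 to 179 CPM with a median of 71.4 CPM in vancomycin-treated GF libraries, and over 37.8 to 129 CPM with a median of 68.3 CPM in PBS-treated GF libraries. Its spread was wider than in SPF colons, with an SD of 43.0 CPM with vancomycin and 27.5 CPM with PBS (n = 16 each), and the log2 fold change was 0.11 ± 0.19. Ccl20 ranged over 0 to 7.70 CPM with a median of 1.04 CPM with vancomycin, and over 0.0807 to 6.74 CPM with a median of 2.94 CPM with PBS, a log2 fold change of -0.03 ± 0.55. Ccl25 lay between 5.05 and 14 CPM in all 32 GF libraries, with a log2 fold change of 0.06 ± 0.12. Among the 8 GF group means of each of the 7 genes, no neighbours in the order differed by more than 0.702 pooled SD.

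At ZT23 the GF groups stood apart for Cxcr3 and Ccl20. Cxcr3 held 0.494, 0.659, 0.307 and 0.465 CPM with vancomycin, against 0.949, 2.00, 1.22 and 1.87 CPM with PBS. Ccl20 held 0.412, 0.439, 2.92 and 0.853 CPM with vancomycin, against 3.24, 5.48, 6.74 and 3.60 CPM with PBS. All vancomycin libraries were below all PBS libraries for both genes, as was so for 4.79% of all genes at that time. The log2 fold changes were -1.63 ± 0.66 for Cxcr3 and -2.03 ± 1.12 for Ccl20 (edgeR adjusted p 0.339 and 0.467). Beside them, all 14 B cell and follicle markers had negative log2 fold changes with a median of -4.36, as did all 19 T and NK cell markers tested, with a median of -3.10. Over 11 other settings, cell scores as covariates among them, the log2 fold change at ZT23 ran from -1.66 to -0.27 for Cxcr3. For Ccl20 it ran from -2.35 to 0.68, and neither gene was called in any. The scores come from the same libraries, so the part of these cells in the Cxcr3 and Ccl20 values cannot be told apart.

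The difference between the SPF and the GF vancomycin effect was tested in a fit over all 64 libraries, on the 16604 genes tested in both tables. It was 2.75 ± 0.67 for Cxcl9, 2.17 ± 0.59 for Cxcl11, 1.45 ± 0.58 for Cxcl10, 0.84 ± 0.47 for Cxcr3 and -0.42 ± 0.21 for Ccl28 on the log2 scale. The edgeR adjusted p was 0.229 for Cxcl9 and for Cxcl11, 0.43 for Cxcl10, 0.547 for Cxcr3 and 0.492 for Ccl28. No gene of the 16604 was called (0%), while 1651 (9.94%) had an unadjusted p under 0.05, among them Cxcl9, Cxcl10, Cxcl11 and Ccl28. DESeq2 put 16 genes past the threshold, Cxcl9 being 1 of them (adjusted p 0.0293). The SPF and GF effects of these genes are therefore not shown to differ by the edgeR test.

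**Figure D4:**
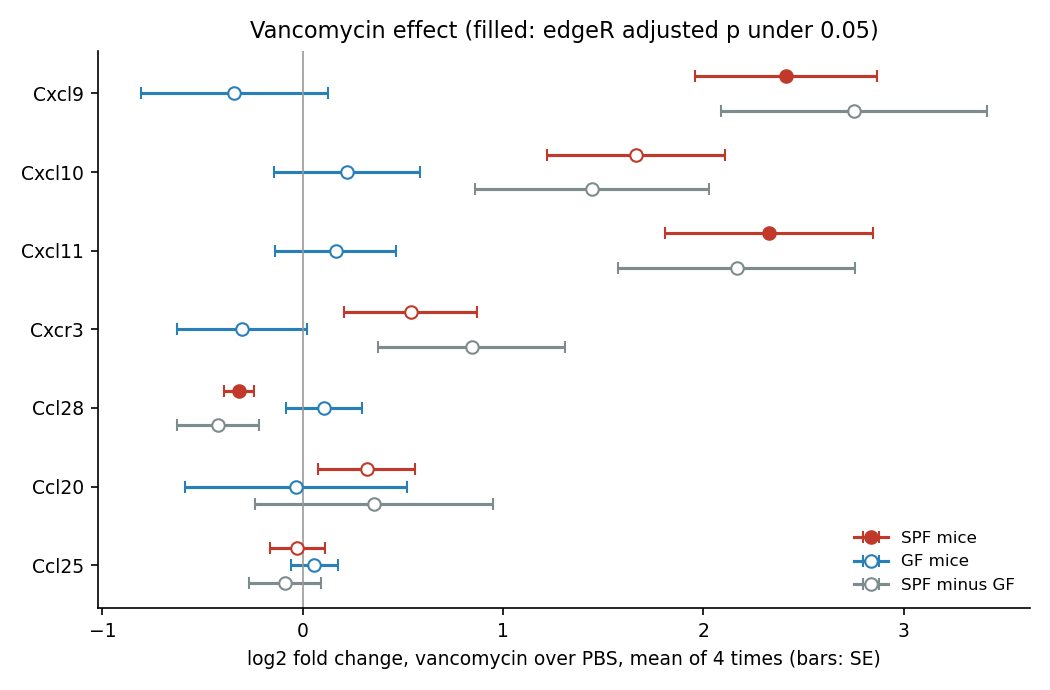
Log2 fold change of vancomycin over PBS, averaged over 4 times (x axis), for each gene (y axis) in SPF mice, in GF mice and as the SPF minus GF difference; bars are SE and filled points passed an edgeR adjusted p under 0.05. Filled points are Cxcl9 (2.41), Cxcl11 (2.33) and Ccl28 (-0.32) in SPF mice, and none in GF mice or for the difference. In SPF mice Cxcl11 passed the filter on low values through vancomycin libraries alone.

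The receptors and regulators that partner these chemokines showed no call in SPF colons. Ccr6, the CCL20 receptor, ranged over 0.503 to 13.7 CPM with a median of 5.79 CPM with vancomycin, and over 0.590 to 12.9 CPM with a median of 2.15 CPM with PBS, a log2 fold change of 0.71 ± 0.48. Ccr9, the CCL25 receptor, ranged over 0.839 to 6.82 CPM with a median of 2.70 CPM with vancomycin, and over 0.590 to 7.30 CPM with a median of 1.59 CPM with PBS, a log2 fold change of 0.51 ± 0.28. Both overlapped between treatments over nearly their whole range. Ccr10, the CCL28 receptor of plasma cells, had a log2 fold change of -0.13 ± 0.15, with means of 1.77 ± 0.556 CPM with vancomycin and 1.94 ± 0.390 CPM with PBS (SD, n = 16 each). Ccr3, the other CCL28 receptor, carried by eosinophils, was at 0 in 11 of 16 libraries of each SPF treatment and was not tested.

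Ackr3, a scavenger of CXCL11 and CXCL12, averaged 7.21 ± 1.48 CPM with vancomycin and 8.71 ± 1.58 CPM with PBS (SD, n = 16 each), a log2 fold change of -0.27 ± 0.12 (edgeR adjusted p 0.245). Ackr4, a scavenger of CCL19, CCL21 and CCL25, had -0.12 ± 0.20. Dpp4, a protease that trims the CXCR3 ligands, had -0.20 ± 0.21. In all, edgeR called 0 of the 6 partner genes tested in SPF colons, with 1 (Ackr3) at an unadjusted p under 0.05, where 16.2% of all genes stood, and 0 in GF colons, with none at that level.

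Of 17 genes of the interferon gamma pathway, which induces the CXCR3 ligands, 14 were tested in SPF colons. Of these, 11 had a positive log2 fold change, against 48.8% of all genes, and 5 had an unadjusted p under 0.05, against 16.2% of all genes. The list's median log2 fold change was 0.20, against -0.00403 over all genes. Socs1, an inhibitor of cytokine signalling, had a log2 fold change of 0.56 ± 0.14 (edgeR adjusted p 0.0525), Ido1, an interferon-induced enzyme, had 1.54 ± 0.60 (adjusted p 0.212), and Irf1, an interferon-induced transcription factor, had -0.01 ± 0.09. Ifng itself was at 0 in 7 of 16 vancomycin and 12 of 16 PBS libraries in SPF colons and was not tested.

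Of 29 other chemokine genes, 19 were tested in SPF colons and none was called, with 13 positive, 6 at an unadjusted p under 0.05 (16.2% of all genes were) and a list median of 0.35. Ccl2, which draws monocytes, averaged 1.34 ± 1.46 CPM with vancomycin and 0.490 ± 0.270 CPM with PBS (SD, n = 16 each), a log2 fold change of 1.32 ± 0.43 (edgeR adjusted p 0.132). Ccl7, a related monocyte chemokine, had 1.26 ± 0.42 (adjusted p 0.147). In GF colons edgeR called 0 of 18 tested, with none at an unadjusted p under 0.05, and the list median was 0.05.

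Other cell types were read in the same fits. All 14 B cell and follicle markers had positive log2 fold changes in SPF colons with a median of 0.76, and none was called by edgeR or at an unadjusted p under 0.05. Of the 8 markers of follicle-associated epithelium and M cells, which overlie lymphoid follicles, all were positive with a median of 0.41, and Marcksl1 was called (0.73 ± 0.17, adjusted p 0.0339). Of 15 macrophage and dendritic cell markers 14 were positive with a median of 0.28, and of 8 plasma cell markers 2 were positive with a median of -0.34. edgeR called 0 of either list, with 4 of each at an unadjusted p under 0.05. At that level stood 15 of the 21 T and NK cell markers and 3 of the 8 markers of follicle-associated epithelium and M cells, and 16.2% of all genes. In GF colons the medians were -0.53 for T and NK cells, -1.07 for B cells and follicles, -0.06 for follicle-associated epithelium, -0.12 for macrophages and dendritic cells and -0.53 for plasma cells, with no call. The tissue label was checked with 6 distal Hox genes, which mark the hindgut: their summed level was 230.3 to 580.5 CPM with vancomycin and 178 to 606 CPM with PBS in SPF colons, and 21.6 to 606 CPM with vancomycin and 62.3 to 441 CPM with PBS in GF colons. The summed level of 6 proximal Hox genes was 3.17 to 11.7 CPM with vancomycin and 3.34 to 10.96 CPM with PBS in SPF colons, and 2.58 to 184.4 CPM with vancomycin and 2.17 to 38.4 CPM with PBS in GF colons, so position along the gut varied more among GF libraries by the Hox genes. The summed level of 15 small intestine markers ranged more widely in SPF colons, at 146.2 to 1603 CPM with vancomycin and 79.8 to 4830 CPM with PBS. In GF colons it was 424.5 to 2492 CPM with vancomycin and 460.6 to 2592 CPM with PBS. At ZT17 in SPF colons 2 of the 10 tested were called lower, against 0.189% of all genes, with a list median of -1.81. With group means removed, Pearson's r with a colon position score (distal over proximal Hox) over 32 libraries was 0.779 for Ccl28 and 0.794 for Ccl20 in GF colons, and 0.0294 and 0.175 in SPF colons. With that score as a covariate, the GF log2 fold change over the 4 times was 0.17 ± 0.13 for Ccl28 and 0.09 ± 0.36 for Ccl20, and that of Ccl20 at ZT23 was -0.91 ± 0.78, none of them called. Position was not the only close score in GF libraries. Ccl20 had an r of 0.882 with the B cell and follicle score and 0.836 with the follicle-associated epithelium score. Ccl28 had -0.754 with the smooth muscle score and 0.636 with the B cell and follicle score. The summed level of 4 Y-linked genes was 214.7 to 279.5 CPM with vancomycin and 209.5 to 280.4 CPM with PBS in SPF colons, and 17.03 to 268.8 CPM with vancomycin and 53.9 to 300.9 CPM with PBS in GF colons. With a Y-linked score as a covariate none of the 7 genes was called in GF colons.

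Genes whose pattern was most like each of the 7 were sought among 14254 or 14255 genes with a mean of at least 1 CPM in each table, by Pearson's r on log2(CPM + 1) with group means removed over the 32 SPF libraries. The r in the 32 GF libraries was not used in that search. For Cxcr3 the most alike were Traf3ip3 (0.934 in SPF, 0.774 in GF), Cd6 (0.929 and 0.771) and Tcf7 (0.929 and 0.699). For Ccl20 they were Gp2 (0.83 and 0.941), Setd2 (0.822 and 0.432) and Ly6d (0.795 and 0.892). Gp2 and Ly6d thus had a higher r with Ccl20 in the GF libraries than in those that chose them, and Setd2 a lower one.

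For Ccl28 the most alike were Tnfsf13 (0.834 in SPF, 0.726 in GF), Pcca (0.766 and 0.258) and Usf3 (0.765 and 0.624). For Cxcl10 they were Tgtp1 (0.771 and 0.530), Socs3 (0.739 and -0.466) and Birc2 (0.733 and 0.385). For Cxcl9 they were Vcpip1 (0.733 and -0.14), Ifi47 (0.714 and 0.303) and Ptbp3 (0.709 and 0.0725). For Cxcl11 they were Bivm (0.724 and -0.0317), Cxcl9 (0.689 and 0.372) and Znfx1 (0.667 and 0.0243), and for Ccl25 Ficd (0.692 and -0.268), Mogat2 (0.625 and -0.064) and Sis (0.623 and 0.386). The likeness of Mogat2 and Sis rests on 2 SPF libraries: without the 2 farthest, r was 0.368 for Mogat2, 0.252 for Sis and 0.685 for Ficd. Spearman's rho over all 32 was 0.387 for Mogat2, 0.274 for Sis and 0.712 for Ficd. The likeness found in SPF libraries was near 0 or negative in GF libraries for the top gene of Cxcl9, Cxcl11 and Ccl25.

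**Figure D5:**
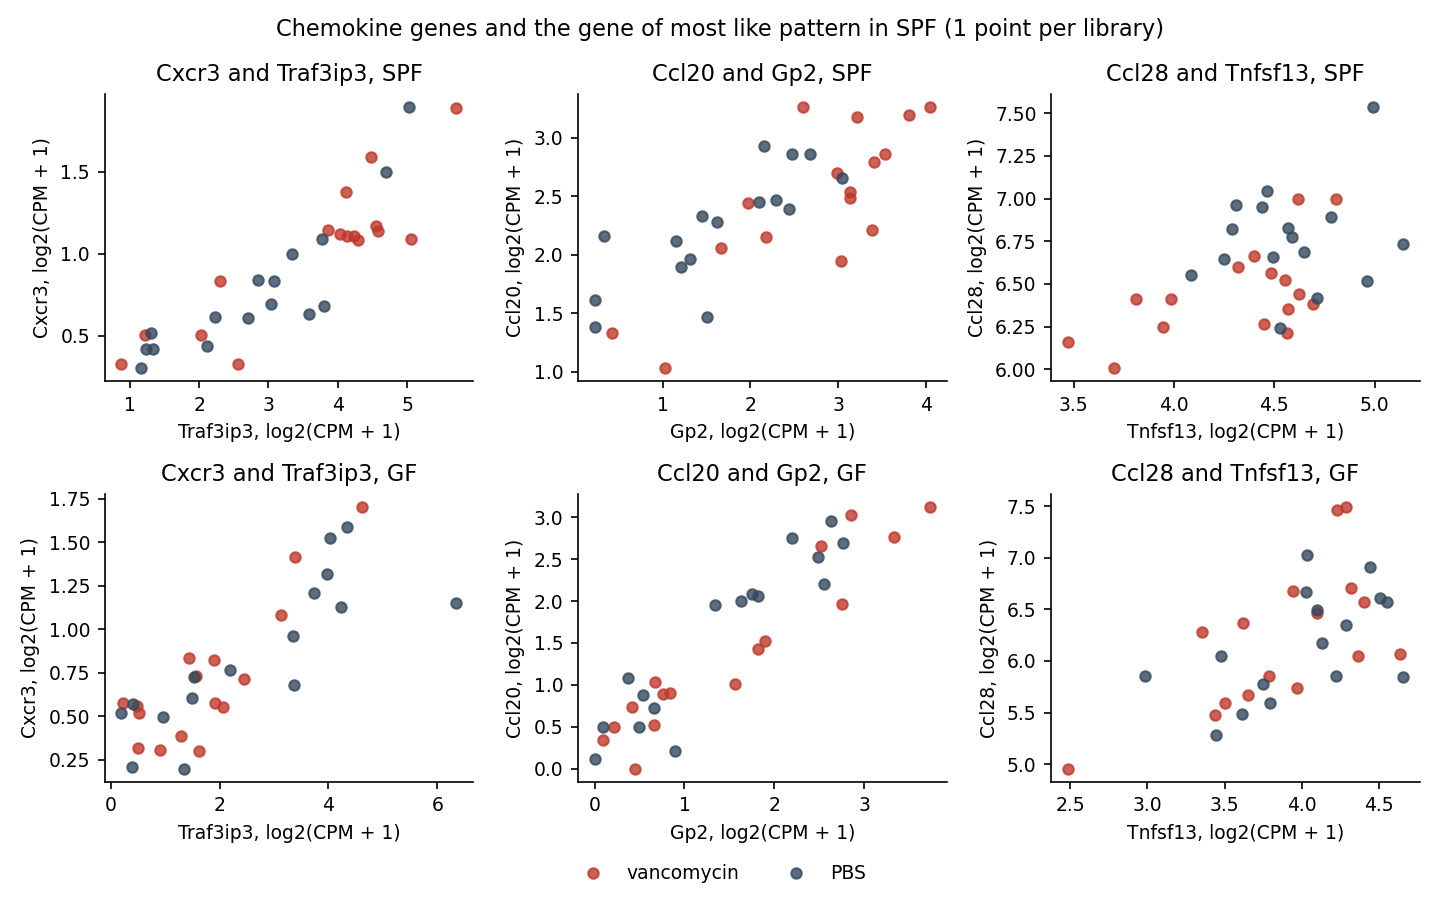
Cxcr3, Ccl20 and Ccl28 (y axes) against the gene of most like pattern in SPF, Traf3ip3, Gp2 and Tnfsf13 (x axes), in log2(CPM + 1), SPF above and GF below; each point is 1 of 32 libraries of a table, coloured by treatment. Points rise together in both tables for Cxcr3 with Traf3ip3 and for Ccl20 with Gp2 (r of 0.774 and 0.941 in GF, with group means removed), and more loosely for Ccl28 with Tnfsf13 (0.726).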

How the data were processed

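RNA of whole colon was poly(A)-selected, made into libraries with the NEBNext Ultra II RNA kit, which does not mark strand, and sequenced with single-end reads; kit and read type are given per the labels' protocols. The authors deposited 1 table for SPF and 1 for GF mice with an estimated count per gene and library. Per the submitters' processing notes, Trim Galore 0.6.2, cutadapt 3.5, Salmon and the GRCm39 build were used. The deposited tables are named as normalized, but library totals differ and no scaling for depth is visible, so single genes may carry another adjustment.

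Estimated counts were rounded, and genes with at least 10 in at least 4 libraries of a table were kept. edgeR 4.0.16 (R 4.3.3) fitted 8 group means per table with TMM scaling and the quasi-likelihood test, and p-values were Benjamini-Hochberg adjusted over all genes tested. The SPF minus GF difference came from a fit over 64 libraries. The steps were tested on simulated data. That simulation changed only genes with ample counts, at a fixed spread between libraries. It therefore does not show how the steps handle low or uneven genes such as Cxcl11. CPM is the rounded count over the TMM-scaled total, and intervals and errors cover only the spread between libraries and counting. DESeq2 1.42.0, limma 3.58.1, other filters and scalings, left-out libraries, a replicate block and tissue scores as covariates were the alternatives.

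Replicate numbers were not used to pair libraries. No 2 libraries of a group held identical values. Partner genes were all named; from other lists, genes called in SPF, GF or their difference, otherwise the 2 with the smallest p, could be named, as could the 3 genes most correlated with each of the 7. A few others (Socs1, Ido1, Irf1, Ifng, Art3, Elavl1 and Gm2673) were named after their values were seen. The 7 genes and the gene lists were chosen with earlier results of these data known. Levels in the SPF and GF tables are given side by side, without a test. A gene of the interferon gamma pathway list and a promoter motif are not reported here.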

Additional observations from a re-analysis of the deposited data

Results flagged for a closer look

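In 12 of 112 groups of 4 libraries (7 genes in 16 groups), the highest or lowest library stood far from the other 3 by Dixon's criterion, which chance alone meets in about 1 in 20 groups, or about 5.6 of 112. For Cxcl10, SPF PBS ZT23 replicate 4 held 3.21 CPM, against 0.0880 to 0.526 CPM in the others. For Cxcr3, SPF vancomycin ZT23 replicate 3 held 0.254 CPM, against 1.12 to 1.18 CPM, and SPF PBS ZT11 replicate 2 held 1.83 CPM, against 0.337 to 0.430 CPM.

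The other 9 were in GF mice. Cxcl9 stood at 2.64 CPM in vancomycin ZT17 replicate 1, 2.55 CPM in vancomycin ZT23 replicate 1, 4.31 CPM in vancomycin ZT5 replicate 4 and 6.81 CPM in PBS ZT11 replicate 1, each the highest of its 4. Vancomycin ZT17 replicate 1 was also the highest for Cxcl11, at 1.17 CPM, and for Ccl20, at 7.70 CPM. Ccl20 stood at 3.17 CPM in PBS ZT17 replicate 3 and at 4.75 CPM in PBS ZT5 replicate 1, each the highest of its 4. Ccl25 stood at 6.18 CPM in vancomycin ZT17 replicate 2, against 11 to 11.7 CPM in the others.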

How the results depend on the processing

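No called value changed direction under any alternative. Over the 4 times in SPF mice, edgeR called 137 genes and 3 of the 7. DESeq2 called 493 genes, no filter on low counts 80, the T and NK cell covariate 50 genes and 1 of the 7 (Cxcl9), the B cell and follicle covariate 85 genes and 1 of the 7 (Cxcl9), and the colon epithelium covariate, added after the data were seen, 7 genes and 0 of the 7. Limma lost Cxcl11 (log2 fold change 1.53, adjusted p 0.106), and no filter and the macrophage and dendritic cell covariate lost Ccl28. Leaving out 1 library gave 47 genes (without vancomycin ZT5 replicate 4) to 521 (without vancomycin ZT11 replicate 3), and 1 to 4 of the 7. Cxcl11 was lost without vancomycin ZT5 replicate 4, ZT11 replicate 1, ZT17 replicate 2 or ZT23 replicate 1, or PBS ZT5 replicate 2, ZT11 replicate 1, ZT23 replicate 2 or ZT23 replicate 3 (1.97 to 2.40, adjusted p 0.0501 to 0.0685). Ccl28 was lost in 21 of these 32 fits (-0.33 to -0.28, adjusted p 0.0528 to 0.0726). Cxcl10 was gained without PBS ZT11 replicate 2, PBS ZT23 replicate 4, vancomycin ZT5 replicate 1 or vancomycin ZT11 replicate 3, and by DESeq2.

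At single times, DESeq2 called 1 of the 7 at ZT11 and 1 at ZT23 (Cxcl9 in both), where edgeR called 0. Leaving out vancomycin ZT11 replicate 3 called 2 at ZT11 (Cxcl9 and Cxcl11), the range being 0 to 2. The Ccl28 call at ZT17 went to 0 with DESeq2-type size factors in edgeR (adjusted p 0.0504), no filter, limma, and the macrophage and dendritic cell, colon position and small intestine covariates, and in 27 of 32 fits without 1 library (0 to 1). The Ccl28 time-of-day call with PBS went to 0 without the filter and with the colon position covariate, and in 9 of 32 fits (0 to 1). With vancomycin, Ccl28 was called for time of day (1 of the 7) with the T and NK cell, B cell and follicle, or macrophage and dendritic cell covariates, and without vancomycin ZT5 replicate 4 (0 to 1). In GF mice DESeq2 called 5 genes against 0. For the SPF minus GF difference DESeq2 called 16 genes and 1 of the 7, the T and NK cell covariate 3 genes, the colon epithelium covariate 3 genes, and leaving out 1 library 0 to 1 gene. The cause of these changes was not tested.

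Same-numbered SPF libraries deviated together (r over 0.1) in 8, 10, 14 and 4 of 28 pairs for numbers 1, 2, 3 and 4. Among differently numbered SPF pairs 66 of 336 did. In GF mice the counts were 8, 9, 10 and 7 of 28, against 123 of 336. These counts do not settle whether the numbers pair libraries, and they were not used to do so. With the replicate block edgeR called 157 genes and 3 of the 7 in SPF mice, and no call of the 7 changed. Low counts limit precision: Cxcl11 had at most 7.11 estimated counts in PBS-treated and 79.3 in vancomycin-treated SPF libraries, in files whose normalization is only partly known.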
